A study of Mus musculus with 2 samples.

Results

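Regions of the mouse genome that were rich in Ptf1a ChIP reads but absent from the authors' list of Ptf1a peaks are described here. They were chosen by their distinct ChIP and input read counts in bins of 200 bp on chromosomes 1 to 19, and by their distance from the list. Each read's 5′ end was moved 73 bp downstream, and reads that shared a position and strand were counted once (distinct reads). A bin had to hold at least 20 distinct ChIP reads, and that number had to exceed 4 times the sum of its distinct input reads and 0.5. Of 10236728 bins with a read in either library, 37835 passed (0.37%). Bins that met these limits, and that lay no more than 500 bp apart, formed 25155 regions. Of these, 3665 lay over 1000 bp from every position of the list and are called unlisted regions. The other 21490 are called listed regions.

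Ptf1a belongs to the basic helix-loop-helix family of transcription factors. The pancreas needs it to form, and acinar cells need it to make digestive enzymes. It works in a complex with an E protein, a common helix-loop-helix partner, and with Rbpj or the acinar form Rbpjl, and this complex reads a short DNA element called an E-box beside a second element called a TC-box. In ChIP-seq, DNA bound by the factor is recovered with an antibody and the fragments are read inward from either end, so that plus-strand reads pile up before a bound site and minus-strand reads after it. A peak list reduces such piles to positions, and a pile can be strong and still be absent from it.

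The study mapped Ptf1a in 266.6 cells, a mouse pancreatic line of C57BL/6 X SJL background at passage 26 that the submitters took to resemble pancreatic progenitors of the embryo. There was 1 library of DNA recovered with a Ptf1a antibody (Beta Cell Biology Consortium), in which material from 2 immunoprecipitations was combined, and 1 library of input chromatin made without an antibody. The same fixation, 10 minutes in 1% formaldehyde, is given for both. All values thus come from 1 cell line. Reads numbered 28502488 in the ChIP library and 27959618 in the input, of which 25030827 and 26436554 on chromosomes 1 to 19 were distinct. With 1 library of each kind there was no replicate. Intervals of shares are 95% Wilson intervals, which cover counting error only. Intervals of medians are 95% intervals by order statistics (ranked values), which cover the spread over regions only. Amplified reads and neighbouring regions are not independent. The labelled cell type could not be checked against marker genes with binding data alone. The coordinates are of the build mm9, the first and last base of the passing bins. Genes and sequence at these positions were not used here.

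The strength of the regions and their excess over input were used to choose them, so the values of this paragraph are descriptions. Unlisted regions were mostly weak, with a tail into the strongest class. The highest bin of an unlisted region held from 20 to 318 distinct ChIP reads with a median of 27, against a median of 47 and a maximum of 379 in listed regions. The same bin held from 0 to 17 input reads with a median of 3, and 217 unlisted regions had none. The median ratio of ChIP reads to input reads plus 0.5 was 8.4 (quartiles 5.77 and 14.7). It was 11.3 in listed regions. Most unlisted regions were short: 3228 (88.1%) were 1 bin, 401 were 2 bins and 36 were longer, while 59.8% of listed regions were 1 bin. Within 100 bp of the summit (the moved read with the most others around it), unlisted regions had a median of 31 distinct ChIP reads, and 597 of them (16.3%) reached 56, the median of listed regions. Together they held 152295 distinct ChIP reads, which was 0.608% of the library, and 6.99% of the ChIP reads in all regions. Their share of the input library was 0.0508%.

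The share of regions missing from the list was lower in each higher class of strength. It was 31.0% (29.9 to 32.0%) where the highest bin held 20 to 29 reads, with 2160 of 6977 regions unlisted. At 30 to 49 reads 942 of 7500 were unlisted (12.6%, 11.8 to 13.3%). The share was 6.38% at 50 to 99 reads (410 of 6427, 5.81 to 7.0%) and 4.0% at 100 to under 200 reads (135 of 3374, 3.39 to 4.72%). At 200 reads and more, 18 of 877 regions were unlisted (2.05%, 1.3 to 3.22%). The lowest class thus supplied 58.9% of unlisted regions. That class borders on the lowest value in the authors' list, a height of 20, and the scale of that value is not given in the sources used here. In the class the unlisted regions had a median of 25 distinct reads within 100 bp of the summit and the listed ones 29. In the next 3 classes these medians were 41 and 45, 74 and 80, and 152 and 155.

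**Figure D1:**
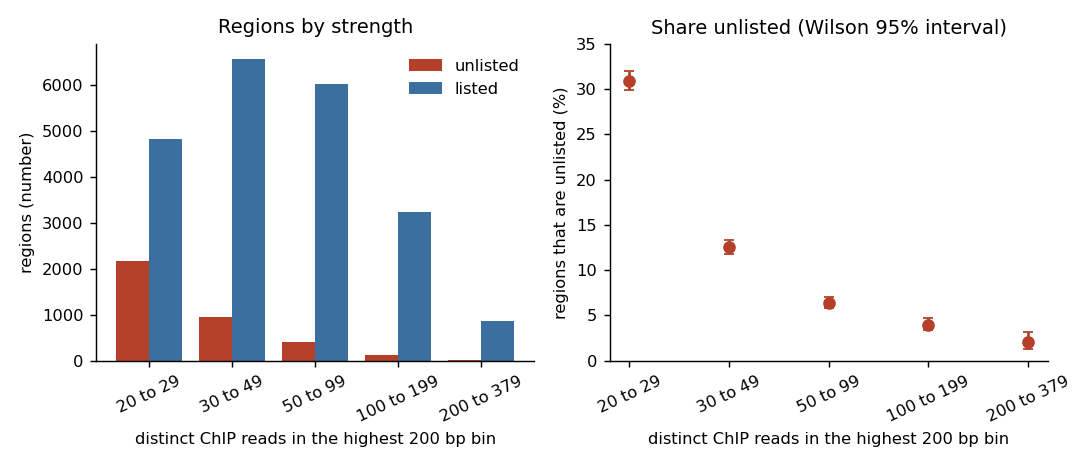
Left, bars give the number of unlisted and listed regions by distinct ChIP reads in the highest 200 bp bin. Right, points give the percent of regions that are unlisted with 95% Wilson intervals, from 31.0% at 20 to 29 reads to 2.05% at 200 and more.

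The 10 strongest unlisted regions lay on 8 chromosomes and had reads on both strands in near equal number. The first was chr15:95676200-95676999, with 318 distinct ChIP reads and 13 input reads in its highest bin. Within 100 bp of its summit there were 167 reads on the plus strand and 175 on the minus strand, and 1004 reads when repeats were counted. The nearest listed position was 1523 bp away and had a height of 23, near the lowest height in the list.

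The second was chr15:39103400-39103799, with 253 ChIP and 12 input reads and 132 plus against 129 minus reads. Its nearest listed position was 19374 bp away. Next were chr3:27992800-27993399, with 248 ChIP and 6 input reads and a listed position at 37966 bp, and chr5:147507200-147507599, with 248 and 11 reads and a listed position at 2630 bp. The fifth, chr18:52465200-52465799, had 247 ChIP reads against 3 input reads and lay 1228 bp from a listed position of height 31. The rule and the ranking by ChIP reads set the excess of these piles over input, and moving 5′ ends favours reads on both strands. Some of the piles were close to a listed position and some far from one.

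The remaining strong regions held 226 to 238 ChIP reads. On chr15:79810800-79811599 there were 238 ChIP and 7 input reads, 3080 bp from a strong listed position of height 243. At chr10:89295200-89295599 there were 238 and 3 reads, and the nearest listed position lay 80470 bp away. Region chr6:53377200-53377799 had 230 and 13 reads, at 22168 bp. Region chr2:154985400-154985799 had 227 and 3 reads and stood alone, with no listed position within 93232 bp. Region chr9:64507200-64507799 had 226 and 8 reads, at 8992 bp. Over the 10 regions the plus strand held between 47.9% and 55.3% of distinct reads near the summit, and repeated reads made up between 42.4% and 65.9% of all reads there. In listed regions of 200 or more reads the median of repeated reads was 52.6%.

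The distance from regions to the list had a gap at 100 to 500 bp, which the joining of bins in part sets. A listed position lay inside 20793 regions and within 100 bp of another 478. Only 50 regions lay over 100 and up to 500 bp away, and 169 lay over 500 and up to 1000 bp away. Beyond that limit, which the rule sets, were the 3665 unlisted regions, and 278 of them lay no more than 2000 bp away. Most regions thus held a listed position, and there was no gap at the limit itself. Of 10678 regions with 50 or more reads, 5 were in the class of 100 to 500 bp and 563 (5.27%, 4.86 to 5.71%) were unlisted.

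Regions at the limit itself were weak on both sides of it, with 1 strong member. The 5 unlisted regions nearest to the limit lay 1002 to 1009 bp from a listed position. They were chr1:93357200-93357399 with 22 reads, chr4:102078800-102078999 with 85, chr15:78756400-78756599 with 24, chr8:125184000-125184199 with 22 and chr9:114020400-114020599 with 34. The 5 regions just outside lay 995 to 998 bp away and held 20 to 46 reads. They were chr6:108919800-108919999, chr17:80344200-80344399, chr10:7949000-7949199, chr5:130523600-130523799 and chr13:93553200-93553399. At the limit on reads, 451 unlisted regions had exactly 20 in their highest bin. With that minimum set to 19, a further 629 regions peaked at 19 reads.

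Unlisted regions lay a median of 17730 bp from the nearest listed position, with quartiles of 5782 and 49718 bp. In all, 2162 (59.0%, 57.4 to 60.6%) were over 12500 bp away and 435 (11.9%, 10.9 to 13.0%) over 100 kb. For listed regions the like distance is that to the nearest position beyond 1000 bp, so that their own peak does not count. It had a median of 12074.5 bp, 49% (48.4 to 49.7%) were over 12500 bp and 7.81% (7.46 to 8.17%) over 100 kb. Unlisted regions were thus somewhat more remote from the list than listed regions were from their neighbours. The median was larger in each class of strength, but only below 100 reads did the intervals of the medians stand apart. The medians were 17410 and 14513 bp at 20 to 29 reads, 17825 and 13127 bp at 30 to 49, 20704 and 11428 bp at 50 to 99, 13823 and 9582 bp at 100 to under 200, and 10252 and 7952 bp from 200. The 18 unlisted regions of the last class had an interval of 3080 to 37966 bp, which includes the listed median, and at 100 to under 200 reads the intervals were 9740 to 19961 and 8868 to 10389 bp. The nearest listed position lay before the region for 1867 unlisted regions and after it for 1798, so both sides were about equally common.

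**Figure D2:**
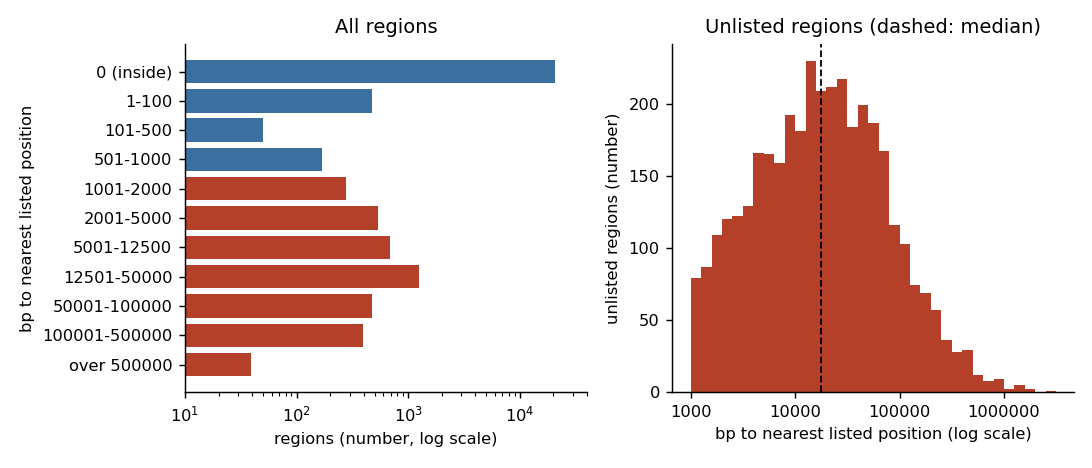
Left, bars give the number of regions in each class of distance to the nearest listed position in bp, on a log scale, with listed regions in blue and unlisted in red. Right, the histogram gives the distance of the 3665 unlisted regions on a log scale, with the median of 17730 bp dashed. The class just above 100 bp, up to 500 bp, holds 50 regions, fewer than the classes on either side of it. Joining of passing bins within 500 bp in part sets this low number.

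The 5 most remote unlisted regions stood in long stretches without a listed position and held 20 to 33 reads. Region chr15:16015200-16015399 had 21 ChIP and 3 input reads and was 2949177 bp from the nearest listed position. Region chr5:62432800-62432999 had 33 and 6 reads at 1770277 bp, and chr6:67039600-67039799 had 23 and 3 at 1751809 bp. Region chr8:103871200-103871399 had 20 and 4 reads at 1480180 bp, and chr14:85967200-85967399 had 29 and 2 at 1453348 bp. Each was a single bin, and their ratios of ChIP to input reads plus 0.5 ran from 4.44 to 11.6. In the surrounding 10 kb they had 65 to 113 distinct input reads, below the median of 135 for unlisted regions.

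Unlisted regions near the list did not stand beside unusually high listed peaks alone. Of 812 unlisted regions within 5 kb of a listed position, 139 (17.1%) had a neighbour of height 100 or more. Such heights made up 13.3% of the list. The median height of the neighbour was 38, against 36 for the list. Dense groups of listed positions held few of them. Groups of 5 or more listed positions joined within 12500 bp numbered 764 on these chromosomes and held 15.1% of listed regions. They contained 78 unlisted regions (2.13%, 1.71 to 2.65%), and a further 94 lay outside but within 12500 bp. The groups covered 0.778% of the 1 kb bins that had a read. Unlisted regions were thus denser inside groups than elsewhere but much less often in groups than listed regions, which the groups are made of. No unlisted region lay inside 691 of the groups, 68 held 1 and 5 held 2. The median distance to a group was 1.01 Mb.

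Along the chromosomes the unlisted regions were mostly single. Neighbouring unlisted regions lay a median of 313.9 kb apart (quartiles 105 and 753 kb), and 156 of 3646 neighbouring pairs (4.28%) were within 12500 bp. In the order of all regions, 2542 unlisted regions (69.4%) had a listed region on either side or a chromosome end, 818 were in runs of 2 and 240 in runs of 3. After an unlisted region the next region was unlisted in 16.9% of cases (619 of 3658, 15.7 to 18.2%), and after a listed region in 14.2% (3043 of 21478, 13.7 to 14.6%). Part of this difference is built in, since regions close to a listed one are listed by the same position. With gaps up to 2 kb the shares were 20.0% (36 of 180, 14.8 to 26.4%) and 7.84% (146 of 1862, 6.7 to 9.15%). With gaps over 2 kb only, the shares were 16.8% (15.6 to 18%) and 14.8% (14.3 to 15.3%), intervals that did not overlap. Taken apart at 2 to 10, 10 to 50 and over 50 kb, the first share was higher each time, but the intervals overlapped. Over 50 kb the shares were 18.8% (17.0 to 20.7%) and 17.0% (16.2 to 17.9%), the highest of the classes over 2 kb. Such gaps numbered 1640 of 3478 after unlisted and 7806 of 19616 after listed regions, so the mix of gaps differed. Pooled over gaps, absence from the list thus ran on from region to region only slightly more often than its overall share of 14.6%. Among regions made with a minimum of 100 reads, the next one was also unlisted in 1.96% of cases, with an interval of 0.669 to 5.61% that includes the overall share of 3.64% there.

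The longest run was 6 unlisted regions on chromosome 16 from 81389000 to 82349999, with 59, 21, 48, 28, 22 and 64 reads in their highest bins. They were 35446 to 482000 bp from listed positions, and 1 listed position lay between them in a place that did not pass the rule. A compact run of 5 lay on chromosome 10 from 74863800 to 74910599, with 22 to 38 reads and 1 listed position between them. Another 5 lay on chromosome 1 from 33328600 to 33778199, with 78, 137, 20, 53 and 31 reads and no listed position between them. On chromosome 4 a run of 5 from 114593000 to 115439399 held 22 to 39 reads, with 2 listed positions between them. Of 11 runs of 4, the one with the shortest span was on chromosome 2 from 131077400 to 131091199, with regions of 21, 122, 30 and 40 reads in 13.8 kb and the nearest listed position 60780 bp away. The runs on chromosomes 16, 1 and 2 mixed regions near the minimum with regions of 59 or more reads, and those on chromosomes 10 and 4 held none above 39.

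Chromosomes differed modestly. The share of regions that were unlisted ran from 10.8% on chromosome 19 (83 of 768, 8.80 to 13.2%) and 10.9% on chromosome 15 (140 of 1280, 9.34 to 12.8%) to 17.0% on chromosome 3 (227 of 1336, 15.1 to 19.1%). For 4 of the 19 chromosomes the interval missed the overall share. In regions of 50 or more reads the share was 2.49% on chromosome 19 (9 of 361, 1.32 to 4.67%), 4.26% on chromosome 15 and 8.96% on chromosome 3 (51 of 569, 6.88 to 11.6%). The median of the highest bin was 51 reads on chromosome 15, against 44 on chromosome 3 and 46 on chromosome 19. Among regions of 20 to 29 reads 29.3% (24.3 to 34.8%) were unlisted on chromosome 15 and 26.3% (20.6 to 33.0%) on chromosome 19. On all chromosomes this share was 31.0%. The part of strength in the low shares was not tested. Per Mb with reads, unlisted regions numbered 1.6 in all, from 1.26 on chromosome 8 to 2.13 on chromosome 11. Listed regions numbered 9.35 per Mb, from 7.26 on chromosome 13 to 13.9 on chromosome 11. Over the 19 chromosomes the densities followed each other with a Spearman correlation of 0.65 (Pearson 0.65), a description over points that share the same libraries and their depth. Input reads per Mb were highest on chromosome 15 (16565), and the share unlisted was lower on chromosomes with more of them (Spearman -0.55, Pearson -0.66 over the same 19 points, again a description).

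**Figure D3:**
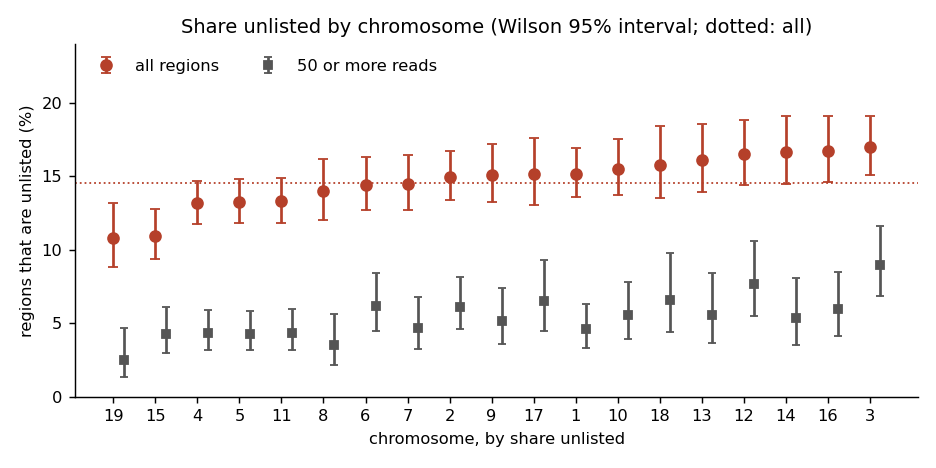
Points give the percent of regions that are unlisted on each of 19 chromosomes, ordered by that share, with 95% Wilson intervals, for all regions (circles) and for regions of 50 or more reads (squares). Chromosomes 19 and 15 lie lowest for all regions, at 10.8% and 10.9%, and chromosome 3 highest at 17.0%.

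The rule counts both strands together, but moving 5′ ends by strand favours piles with reads on both, so strand balance is not fully separate from it. Of the distinct ChIP reads within 100 bp of the summit, the median unlisted region had 50% on the plus strand, with 5th and 95th percentiles of 35.5% and 65.1%. In listed regions these were 50%, 38.9% and 61.1%. Fewer reads give a wider range by counting alone, and in classes of like strength the ranges were closer: 40.1 to 58.6% against 41.5 to 58.9% at 50 to 99 reads. Each region was also tested for an unequal split between strands with an exact two-sided binomial test, and Benjamini-Hochberg adjustment took in all 25155 regions. This test compares reads within 1 library. An adjusted p under 0.05 was found in 30 regions, or 0.119%. Of the unlisted regions 8 were called (0.218%), 5 with more plus and 3 with more minus reads, and of the listed regions 22 (0.102%). At an unadjusted p under 0.05 there were 135 unlisted (3.68%) and 606 listed regions (2.82%). The number called depended on the move: with 5′ ends not moved, 290 of 2241 unlisted regions were called. The share over all regions or listed regions with ends not moved is not given here. The 290 thus cannot be read as particular to unlisted regions.

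The most uneven members were named after their values were seen. Region chr15:31487800-31487999 had 56 plus-strand and 5 minus-strand reads (exact binomial test, adjusted p = 2.03e-08) and chr1:60120400-60120599 had 46 and 2 (adjusted p = 2.63e-08). The first held 59 ChIP and 5 input reads in its highest bin and the second 35 and 1. In both, almost all reads of the pile were on 1 strand.

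The offset between strands was also like that of listed regions. From the median plus-strand to the median minus-strand 5′ end within 300 bp of the summit, unlisted regions had a median of 142 bp and listed regions 142.5 bp. In each class of strength the median offset was slightly larger in unlisted than in listed regions. However, the intervals of the medians overlapped in every class from 50 reads, and at 20 to 29 reads they met at 137 bp. The medians were 139 and 136 bp at 20 to 29 reads, and 145 and 144 bp at 50 to 99. At 30 to 49 reads they were 143 (interval 141.5 to 145) and 140.5 bp (140 to 141). In unlisted regions of 100 to under 200 reads it was 148 bp (5th and 95th percentiles 126 and 165 bp), against 146 bp in listed ones. From 200 reads the medians were 147.2 and 145.5 bp. The move of 73 bp favours regions with an offset near 146 bp. Among unlisted regions found with 5′ ends not moved, the median offset was 140 bp. The choice of the summit among moved ends itself favours plus-strand ends before it and minus-strand ends after it. With that limit, in the profile around the summit, plus-strand ChIP reads lay before it and minus-strand ChIP reads after it in both groups. Input reads were not flat there in stronger regions. In unlisted regions of 50 to 99 reads, plus-strand input averaged 0.103 distinct 5′ ends per region and 10 bp within 150 bp of the summit and 0.0681 beyond 300 bp, and in listed ones 0.118 and 0.0921. At 20 to 29 reads the unlisted regions had 0.0754 and 0.0718.

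**Figure D4:**
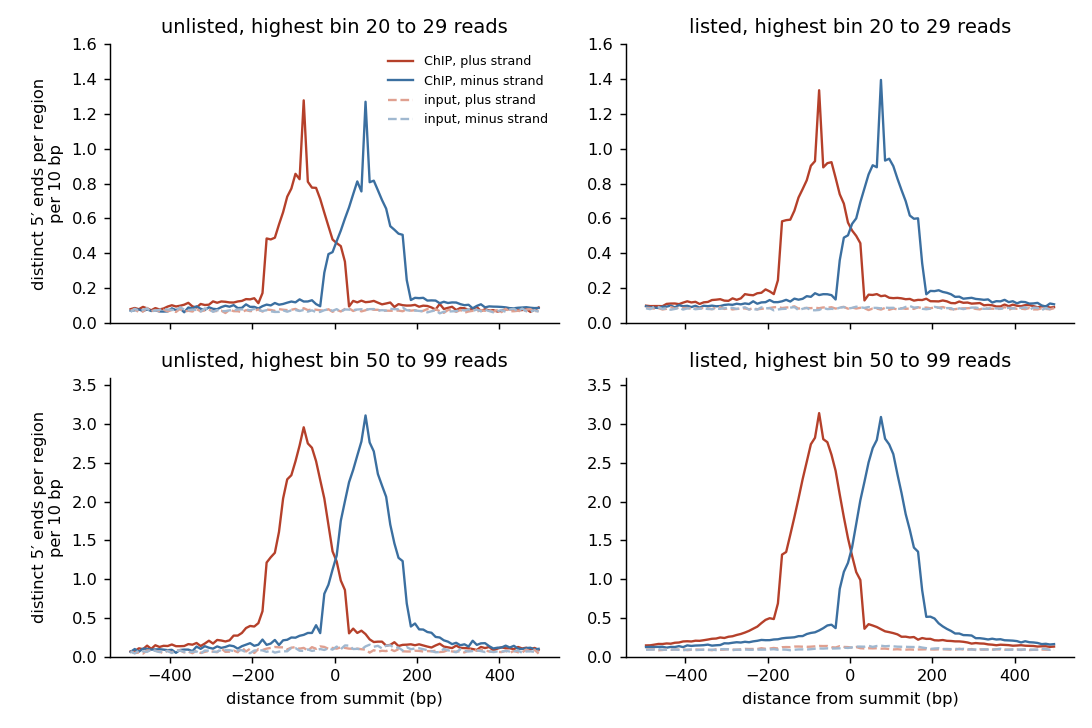
Lines give distinct 5′ ends per region in steps of 10 bp within 500 bp of the summit, for unlisted (left) and listed regions (right) of 20 to 29 reads (top) and 50 to 99 reads (bottom), by library and strand. The plus-strand and minus-strand piles of ChIP reads stand on opposite sides of the summit in all 4 panels, and input reads are far lower, with a small rise near the summit in the bottom panels. The choice of the summit at a moved read favours piles on opposite sides. It also sets their steep edges and the sharp tip 75 bp to each side.

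Repeated reads differed little from listed regions of like strength. Extra copies of reads at the same position and strand made up a median of 18.2% of ChIP reads near the summit in unlisted regions of 50 to 99 reads and 18.6% in listed ones. At 100 to under 200 reads these were 31.4% and 31.8%, and at 20 to 29 reads 8.70% and 9.38%.

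The surroundings of the piles also differed. Distinct input reads in the 10 kb around the summit, without those within 100 bp of it, had a median of 135 for unlisted and 156 for listed regions. In the class of 100 to under 200 reads the medians were 131 (interval of the median by order statistics 119 to 143) and 166. ChIP reads in the same 10 kb had medians of 182 and 236 in that class. Over 300 and up to 1000 bp from the summit, unlisted regions of that class had a median of 18 input and 29 ChIP reads, and listed regions 25 and 40. In this class, which by its limits holds piles of like height, the surroundings of unlisted regions thus held fewer reads in both libraries.

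The share missing from the list was lower at higher local input in the 4 classes of strength below 200 reads. The class above, with 18 unlisted regions, was not divided. Among regions of 50 to 99 reads, 105 of 840 (10.4 to 14.9%) were unlisted where the surrounding 10 kb held under 100 input reads. The share was 6.77% from 100 to under 150, 6.25% from 150 to under 200 and 2.88% (47 of 1632, 2.17 to 3.81%) at 200 or more. Among regions of 100 to under 200 reads, the lowest input class had 8.97% unlisted (35 of 390, 6.52 to 12.2%) and the highest 1.41% (14 of 993, 0.842 to 2.35%). At 30 to 49 reads these shares were 18.9% and 8.39%, and at 20 to 29 reads 37% and 23.7%. The intervals of the lowest and the highest input class did not overlap in any of these 4 classes. The local reads leave out the summit, but the rule sets a limit on input reads in the bin itself, so the measures are not fully separate.

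The pattern was present within chromosomes. For regions of 30 or more reads, 14.7% (356 of 2424, 13.3 to 16.1%) were unlisted with under 100 local input reads and 4.36% (198 of 4546, 3.8 to 4.99%) with 200 or more. Strength was not held equal here: 1140 of the 2424 and 1585 of the 4546 had 30 to 49 reads, where more regions were unlisted than in stronger classes. The share was higher at low input on 18 of 18 chromosomes that had regions of both kinds. However, chromosomes 12 and 18 had only 18 regions each at high input. Chromosomes 15, 19, 17 and 5 had 15, 23, 34 and 44 at low input. Chromosome 13 had none at high input. Among regions of 1 bin, a restriction added after seeing the data, 14.9% (63 of 422, 11.9 to 18.6%) and 3.0% (25 of 833, 2.04 to 4.39%) of those with 50 to 99 reads were unlisted at low and high local input. The part of local input in the authors' calls was not tested.

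**Figure D5:**
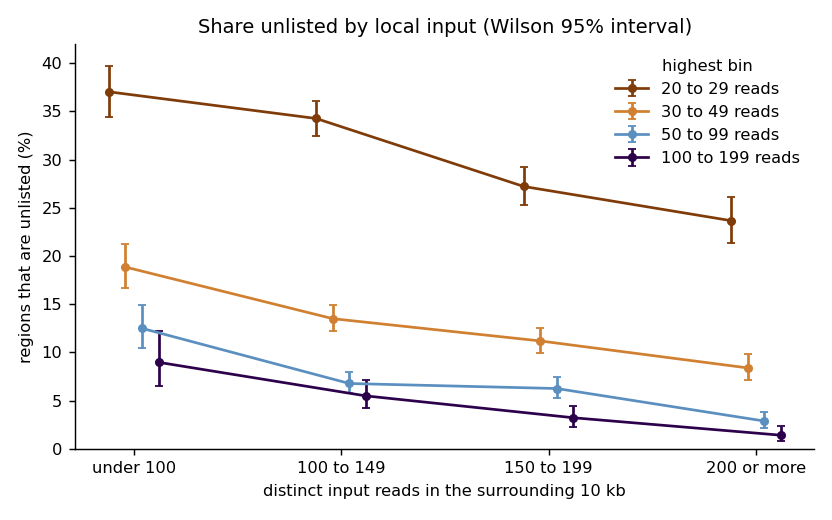
Points give the percent of regions that are unlisted by distinct input reads in the surrounding 10 kb, with 95% Wilson intervals and 1 line for each class of distinct ChIP reads in the highest bin. The share is lower at higher local input in all 4 classes, from 8.97% to 1.41% in the class from 100 reads.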

How the data were processed

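Ptf1a ChIP and input reads of 266.6 cells were analysed. Read counts come from lists that the authors deposited, with 1 line and a value of 1 per placed read of 37 bp. The build is mm9, per the submitters' processing notes. The alignment and any filters on reads are not stated in the labels or files. The authors also deposited a list of 30691 positions (30327 on chromosomes 1 to 19) with spans of 100 bp and a signal value (height) of 20 to 396, per the file headers and values. The sources used here name neither its caller nor its threshold.

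Bins, regions and distances were computed with Python 3.11.15, numpy 2.4.6, pandas 2.3.3 and scipy 1.17.1. The summit is the moved distinct read with most others within 100 bp. The scan and the strand test were tested on simulated reads. Listed positions inside a region numbered 22582 (74.5% of those on these chromosomes).

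The members, lists and tests were chosen with earlier results of these data known. The regions named are the 10 strongest, the 5 most remote, the 5 longest runs (ties by shortest span), the 5 nearest to the distance limit on either side, and the chromosomes with the highest and lowest share. The strand test, the chromosome 15 values and the classes of local input were added after seeing the data. Alternatives changed 1 choice at a time. No genome of mm9 was used here, so genes, motifs and sequences are not reported.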

Additional observations from a re-analysis of the deposited data

How the results depend on the processing

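The number of unlisted regions, 3665, depended on the strength demanded: it was 568 with a minimum of 50 distinct ChIP reads, 156 with 100, 1960 with a ratio over 8 and 2241 with 5′ ends not moved, and within 1.5 times under the other 8 settings. The share of regions unlisted (14.6%) was then 5.29%, 3.64%, 11.6% and 10.5%. It was 15.3% beyond 250 bp and 13.0% beyond 2500 bp from listed positions, 18.2% with all reads counted, and 20.1% in regions of 1 bin. The share whose next region was unlisted too (16.9%) was 6.39% and 1.96% with the minimum of 50 and 100, 13.8% with the ratio, 11.9% with ends not moved and 20.7% with all reads. The median distance (17730 bp) was 13209.5 bp with 100 reads, 19716.5 bp with the ratio, and 15807 and 21664.5 bp with limits of 250 and 2500 bp. The difference in share unlisted between low and high local input at 50 to 99 reads (9.62 percentage points) lay between 8.96 and 11.9 under its 11 alternatives, and had no value with a minimum of 100. The median plus-strand share was 50% under all 11, also with ends not moved, so it does not show the balance of single regions. With ends not moved, 290 unlisted regions were called unequal between strands in place of 8, but the number of listed regions called there is not given. With a minimum of 50 reads 1 unlisted region was called, and with 100 none. The causes of these changes were not tested. The search for E-boxes was not run. There was no replicate to leave out, and no paired analysis was possible because each group had 1 library. The weakest regions, whose highest bins hold 20 to 29 reads, lie near the minimum of the rule, and the effect of depth on them was not tested.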

Other observations

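Chromosome X was outside the rule. The same scan found 367 regions there, of which 77 were unlisted (21.0%, 17.1 to 25.4%), with a median of 28 and at most 144 distinct ChIP reads in the highest bin. The strongest was chrX:49608600-49608799, with 1 input read. Of 122 regions with 20 to 29 reads on chromosome X, 41 were unlisted.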
